A study of Drosophila melanogaster with 3 samples.

Results

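The genes that encode the proteins of the mitochondrial ribosome were examined in the peak tables of the chromatin remodeler SMARCAD1 and the histone acetyltransferase CBP. All genes whose name in either table begins with mRpL (large subunit) or mRpS (small subunit) were taken, which gave 45 of the 6016 genes in the tables, 30 mRpL and 15 mRpS genes. The SMARCAD1 table held 33 entries for 29 of these genes, and the CBP table held 38 entries for 36 of them. RefSeq lists 73 mRpL and mRpS genes in all, 47 for the large and 26 for the small subunit. The remaining 28 (17 mRpL and 11 mRpS) had no entry under that name.

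The mitochondrial ribosome synthesizes the few proteins encoded in mitochondrial DNA, all of them core subunits of the respiratory chain and ATP synthase. Its RNA comes from mitochondrial DNA, whereas all of its proteins are encoded in the nucleus, made in the cytosol and imported. Their genes are expressed in nearly all cells and are scattered over the chromosomes, so that many separate promoters supply one particle.

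Chromatin came from S2 cells, a cultured line derived from Drosophila melanogaster embryos that resembles haemocytes. All cells had received EGFP dsRNA, the nonspecific control of the knockdown experiments, for 6 h in medium without serum at 26 °C, followed by 72 h after serum was added, so no group lacked the dsRNA and no group was depleted of either protein. One library was immunoprecipitated with anti-SMARCAD1 and another with anti-CBP, and of the input DNA library no table was used here. With 1 library per antibody there is no replicate error and no P value, and each comparison describes these libraries.

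The tables give peak positions and no read counts, scores or enrichments, so sequencing depth is unknown and a start without a listed peak cannot be called free of the protein. Likewise, no listed peak could be checked in another library or by its score, so a covered start need not be occupied by the protein. There were 3211 SMARCAD1 and 3762 CBP peaks. Of 6 haemocyte marker genes, CBP peaks covered the starts of Pvr and crq, and SMARCAD1 peaks covered 0 of the 6 starts. Peaks do not measure RNA, so these genes do not check the identity of the cells. A start is called covered when the peak overlaps it or contains the whole gene, the classes OverlapStart and IncludeFeature of the tables. Distances run from the gene start to the centre of the peak and are negative upstream. Intervals are exact (Clopper-Pearson) 95% intervals for shares and order-statistic 95% intervals for medians, and cover counting error only.

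Starts of mitochondrial ribosomal protein genes lay under peaks of both proteins. SMARCAD1 peaks covered 26 of the 73 starts, or 35.6% (24.7 to 47.7%), and 17.9% of the starts of all 13922 protein-coding genes. CBP peaks covered 33 of 73, or 45.2% (33.5 to 57.3%), against 24% of all genes. Both covered the same 19 starts, or 26% (16.5 to 37.6%), against 12.5%. In each of these comparisons the interval for the mitochondrial ribosomal protein genes lay above the value for all genes. In all, 40 of the 73 starts (54.8%) were under a peak of at least one antibody. With only the start nearest to each peak centre counted, SMARCAD1 and CBP covered 13 starts each, and their excess over all genes was smaller.

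**Figure D1:**
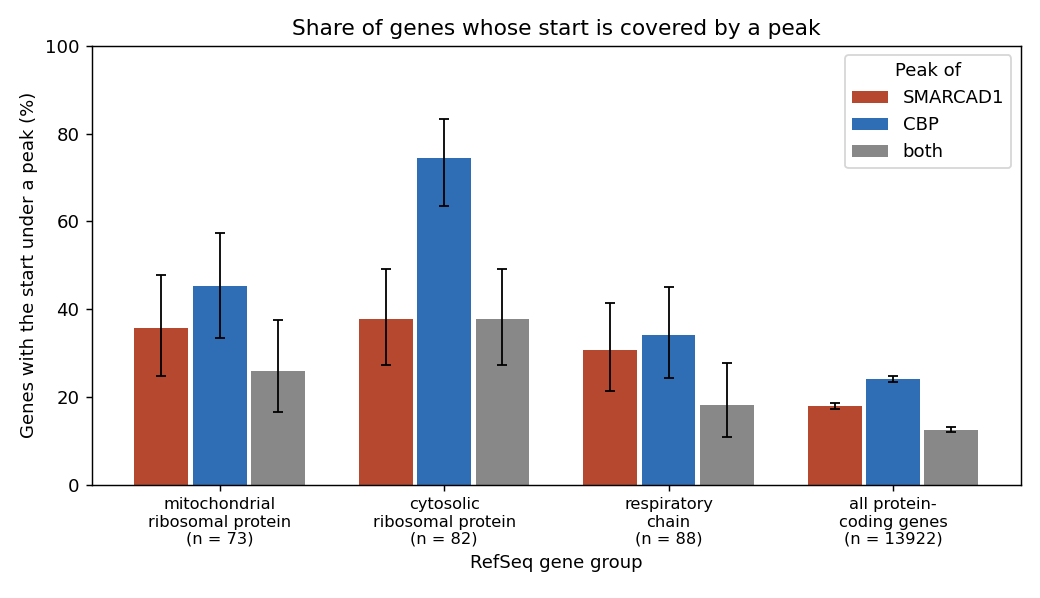
Share of genes (%) whose start lay under a SMARCAD1 peak, a CBP peak or peaks of both, for 4 groups of RefSeq genes. Bars start at 0 and error bars are exact 95% intervals (counting error only). For the 73 mitochondrial ribosomal protein genes the shares were 35.6, 45.2 and 26%, and for all 13922 genes 17.9, 24 and 12.5%.

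Sharing between the antibodies was close to that of all genes. CBP covered 19 of the 26 SMARCAD1-covered starts of mitochondrial ribosomal protein genes, 73.1% (52.2 to 88.4%), against 70% of all SMARCAD1-covered starts. SMARCAD1 covered 57.6% (39.2 to 74.5%) of the CBP-covered ones, against 52.2% of all. Both intervals contain the value for all genes.

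The cytosolic ribosomal protein genes, which encode the ribosome that translates nuclear mRNAs, differed in the share covered by CBP. CBP peaks covered 61 of their 82 starts, 74.4% (63.6 to 83.4%), an interval that does not overlap that of the mitochondrial ribosomal protein genes. SMARCAD1 covered 31 (37.8%, 27.3 to 49.2%), an interval that overlaps it. All 31 were also covered by CBP, whereas 7 of the 26 SMARCAD1-covered mitochondrial ribosomal protein genes were not. Of 88 nuclear genes for respiratory chain and ATP synthase subunits, whose products work beside those of the mitochondrial ribosome, 30.7% (21.3 to 41.4%) were covered by SMARCAD1 and 34.1% (24.3 to 45%) by CBP. These intervals overlap those of the mitochondrial ribosomal protein genes.

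Genes of the large and the small subunit were covered at shares whose intervals overlap. Of the 47 mRpL genes, 19 (40.4%, 26.4 to 55.7%) were covered by SMARCAD1 and 23 (48.9%, 34.1 to 63.9%) by CBP. Of the 26 mRpS genes, 7 (26.9%, 11.6 to 47.8%) were covered by SMARCAD1 and 10 (38.5%, 20.2 to 59.4%) by CBP. Both antibodies covered 15 mRpL and 4 mRpS starts.

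Many of these proteins carry the number of a bacterial ribosomal protein, and higher numbers were given to proteins first known from mitochondria. Among the 42 genes numbered up to 36 (large) or 21 (small), SMARCAD1 covered 12 starts (28.6%, 15.7 to 44.6%) and CBP 20 (47.6%, 32 to 63.6%). Among the 31 with higher numbers, SMARCAD1 covered 14 (45.2%, 27.3 to 64%) and CBP 13 (41.9%, 24.5 to 60.9%). The intervals of these groups overlap for both antibodies. This split was chosen after the values had been seen.

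The covered genes lay on all 5 large chromosome arms. SMARCAD1 covered 10 of the 21 genes on 3R, 7 of 17 on 3L, 4 of 12 on 2L, 3 of 12 on 2R and 2 of 11 on X. CBP covered 9 on 3R, 8 on 3L, 5 on 2L, 8 on 2R and 3 on X. Of all genes on these arms, SMARCAD1 covered 16.4 (2L) to 19.8% (X) and CBP 20.7 (X) to 25.5% (3R). The largest gap between the antibodies was on 2R, where they covered 17.3 and 24.6% of all genes.

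The 19 starts under peaks of both antibodies belonged to mRpL2, mRpL9, mRpL17, mRpL19, mRpL23, mRpL27, mRpL28, mRpL33, mRpL39, mRpL43, mRpL45, mRpL48, mRpL50, mRpL54, mRpL55, mRpS6, mRpS10, mRpS18C and mRpS24. They include mRpL2, the counterpart of a bacterial protein at the peptidyl transferase centre, and mRpL23, the counterpart of one at the exit of the nascent peptide tunnel. They also include mRpS10, the counterpart of a bacterial small subunit protein.

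In the 10 of these genes with the nearest centres, both lay within 208 bp of the start. At mRpL48 the SMARCAD1 centre was at +66 and the CBP centre at -58 bp. At mRpL28 the centres were at -70 and -100 bp, and at mRpL23 at +82 and +128 bp. The centres thus lay on the gene side of the start at mRpL23 for both antibodies and at mRpL48 for SMARCAD1 alone.

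The other 7 of these 10 genes had both centres upstream. They were at -102 and -128 bp for mRpL9, -44 and -143 bp for mRpL43, and -117 and -144 bp for mRpL50, the SMARCAD1 value first. At mRpL45, whose mammalian counterpart lies near the tunnel exit facing the inner membrane, they were at -149 and -109 bp. At mRpS10 they were at -176 and -182 bp, 6 bp apart. At mRpS24 they were at -198 and -158 bp and at mRpL19 at -179 and -208 bp, so that the antibodies had no fixed order.

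At the other 9 genes at least one centre was farther away. Both were upstream at mRpL27 (-218 and -198 bp, again with the SMARCAD1 value first), mRpS18C (-526 and -133 bp), mRpS6 (-532 and -365 bp), mRpL33 (-374 and -628 bp) and mRpL54 (-725 and -693 bp). mRpL2 (3L, 11113959 to 11115141 on the plus strand in the coordinates of the tables) had the most distant centres, at -1357 and -1268 bp. Both were on the gene side at mRpL55 (+635 and +663 bp) and at mRpL17 (3L, 264782 to 265599, plus strand; +914 and +48 bp). mRpL39 (3L, 14991073 to 14992764, minus strand) was the one gene of these 9 with centres on opposite sides, at +812 and -166 bp.

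A SMARCAD1 peak over the start and no CBP entry at all were found for 7 genes, mRpL1, mRpL44, mRpL49, mRpL51, mRpS26, mRpS28 and mRpS33. The centres were at -106 bp for mRpL51, -121 bp for mRpL1 and -315 bp for mRpL49. They were farther upstream for mRpS33 (-373 bp), mRpS26 (-423 bp), mRpL44 (-482 bp) and mRpS28 (-845 bp). All 7 were therefore upstream. The nearest edge of a CBP peak was 1611 bp (mRpS28) to 44279 bp (mRpS26) from the start, with a median of 2599 bp.

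A CBP peak over the start and no SMARCAD1 entry were found for 14 genes. Among the 8 mRpL genes, the centres were at -30 bp for mRpL42, -143 bp for mRpL24, -157 bp for mRpL32, -313 bp for mRpL34, -364 bp for mRpL41 and -419 bp for mRpL18. mRpL3, whose bacterial counterpart also reaches the peptidyl transferase centre, had its centre at -1529 bp, and mRpL20 had its centre at +1163 bp. Among the 6 mRpS genes, the centres were at -45 bp for mRpS16, -268 bp for mRpS17, -269 bp for mRpS23, -402 bp for mRpS30, -600 bp for mRpS21 and -615 bp for mRpS31. Thus 13 of the 14 centres were upstream of the start, with mRpL20 the exception. The nearest SMARCAD1 peak edge was 971 bp (mRpL41) to 35687 bp (mRpL32) away, with a median of 10498.5 bp, and it was beyond 5000 bp for 10 of the 14.

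**Figure D2:**
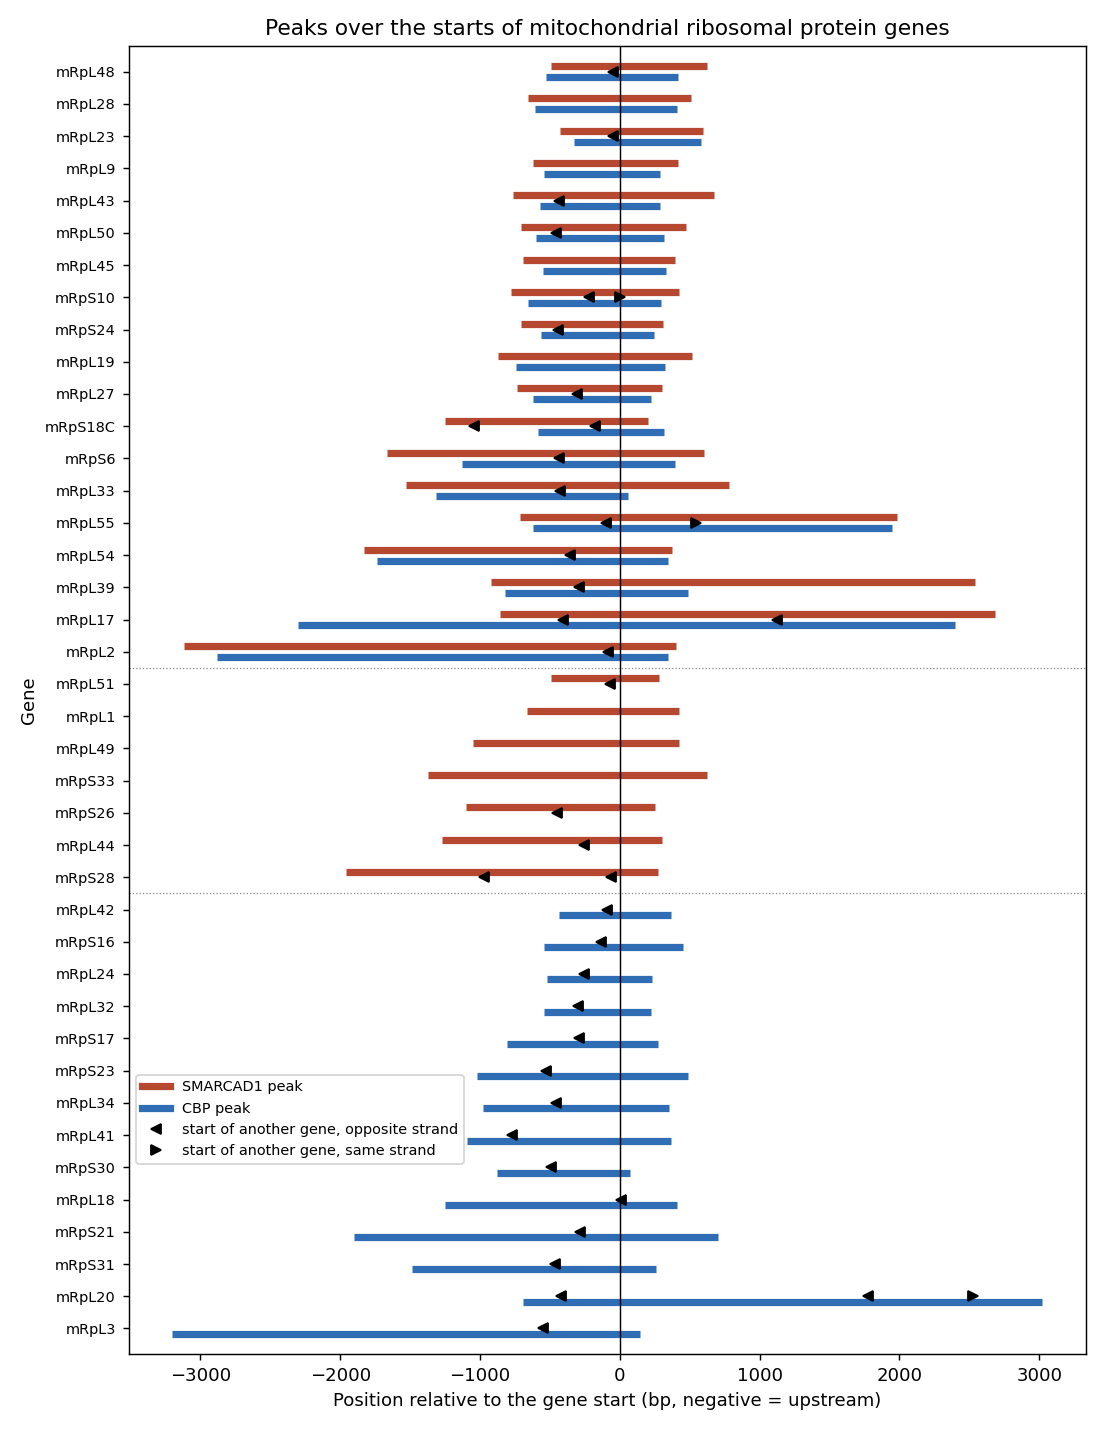
Extent of the start-covering SMARCAD1 (red) and CBP (blue) peaks in bp around the starts (position 0) of 40 mitochondrial ribosomal protein genes. Arrowheads mark starts of other genes under the same peak, and dotted lines separate 19 genes with both peaks (top), 7 with SMARCAD1 alone and 14 with CBP alone. Most peaks reach farther upstream than downstream, 21 of 26 for SMARCAD1 and 29 of 33 for CBP.

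Another 5 genes were in the tables without a covered start. A CBP peak covered the end of mRpL13, with its centre 1454 bp downstream of the start. One CBP peak covered the end of mRpS35, centred at +1453 bp, and also the start of the neighbouring gene pgant6, which encodes a glycosyltransferase. The entries of mRpL14, mRpL16 and mRpS11 were for peaks inside a neighbouring gene. For mRpL14, which had entries of both antibodies at +4823 and +4762 bp, the peaks lay inside phl, the Drosophila Raf kinase. For mRpL16 a SMARCAD1 peak at +3762 bp lay inside arm (beta-catenin), and for mRpS11 one at -8455 bp lay inside Dad, the inhibitory Smad.

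Some genes with a covered start had further entries. mRpL43 and mRpS26 also had a SMARCAD1 peak over the gene end, centred at +1333 and +1140 bp. mRpL18 had a second CBP peak over its end, at +1092 bp, which covered the starts of ox, which encodes a subunit of respiratory complex III, and the diacylglycerol kinase gene Dgkepsilon. mRpL45 had downstream entries for peaks inside loco, a regulator of G protein signalling, at +5024 and +8291 bp for SMARCAD1 and at +7693 bp for CBP. These peaks lay over or near the genes without touching their starts.

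By class, OverlapStart held 21 of the 33 SMARCAD1 entries (63.6%, 45.1 to 79.6%, against 39.9% of all entries) and 28 of the 38 CBP entries (73.7%, 56.9 to 86.6%, against 50.5%). IncludeFeature held 5 entries of each antibody, or 15.2 and 13.2%, against 8.19 and 5.66% of all entries. OverlapEnd held 2 SMARCAD1 and 3 CBP entries, or 6.06 and 7.89%, against 24.1 and 14.8% of all entries. The 4 downstream entries of SMARCAD1 and 2 of CBP made up 12.1 and 5.26%, against 3.46 and 3.58%, and the single upstream entry was one of SMARCAD1 (3.03%, against 6.91%). No peak of either antibody lay inside a mitochondrial ribosomal protein gene. The count of 0 has an upper limit of 10.6% for SMARCAD1 and 9.25% for CBP, and 17.5 and 18.6% of all entries were of this class. The genes are short, with a median length of 844 bp for those covered by SMARCAD1 and 789 bp for those covered by CBP, against 2572 and 2756.5 bp for all covered genes. The part of gene length in the class shares was not tested.

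The median distance of the covering peak from the start was -177.5 bp (-374 to -102 bp) for SMARCAD1 and -166 bp (-313 to -133 bp) for CBP. For all genes the medians were -194 and -129 bp. The interval for CBP thus lies just upstream of the median of all genes, and that for SMARCAD1 contains it. For the 29 genes with another start under the CBP peak, the median was -182 bp (-365 to -143 bp). All 2283 such genes had a median of -155 bp, within that interval. For the 4 genes alone under a CBP peak it was -118.5 bp (range -208 to -100 bp), against -73 bp. The centre was upstream of the start in 21 of 26 genes for SMARCAD1 (80.8%, against 68.6% of all genes) and in 29 of 33 for CBP (87.9%, against 67.7%). The exceptions were mRpL17, mRpL23, mRpL39, mRpL48 and mRpL55 for SMARCAD1 and mRpL17, mRpL20, mRpL23 and mRpL55 for CBP. All of them were mRpL genes.

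The median width of the peaks at these genes was below that at all genes, but not beyond its interval. It was 1415 bp (1114 to 2203 bp) for SMARCAD1, against 2040 bp for all covered genes, the latter within the interval. For CBP it was 1069 bp (915 to 1511 bp), against 1498 bp, which also lies within the interval. The CBP peaks reached a median of 344 bp (287 to 410 bp) into the gene side of the start, against 488.5 bp for all genes, and 694 bp (583 to 1024 bp) upstream, against 792.5 bp. The downstream reach of the SMARCAD1 peaks was 425.5 bp (376 to 601 bp), against 567 bp. Of these reaches, the interval excluded the value of all genes for the gene side of the CBP peaks alone.

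The widths ranged several fold among the genes. The widest SMARCAD1 peaks were at mRpL17 (3544 bp), mRpL2 (3517 bp) and mRpL39 (3461 bp), and the narrowest at mRpL51 (775 bp), mRpS24 (1021 bp) and mRpL23 (1024 bp). The widest CBP peaks were at mRpL17 (4698 bp), mRpL20 (3715 bp) and mRpL3 (3348 bp), and the narrowest at mRpL24 (752 bp), mRpL32 (767 bp) and mRpL42 (802 bp). mRpL17 had the widest peak of both antibodies.

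Most of these peaks covered the start of another gene as well. A SMARCAD1 peak held another start in 19 of 26 genes, 73.1% (52.2 to 88.4%), against 67.3% of all covered genes. A CBP peak did so in 29 of 33, 87.9% (71.8 to 96.6%), against 68.2%. Of these other starts, 21 of 24 under SMARCAD1 and 28 of 34 under CBP peaks belonged to a divergent gene, which is transcribed away from the mitochondrial ribosomal protein gene on the opposite strand. These shares were 87.5 and 82.4%, against 73.6 and 78.4% for all covered genes, and no interval was taken for them. A divergent start was under the peak in 19 of 26 genes for SMARCAD1 (73.1%, against 59.4%) and in 28 of 33 for CBP (84.8%, 68.1 to 94.9%, against 61.2%). For CBP the intervals lay above the values for all covered genes, and for SMARCAD1 they contained them. Among cytosolic ribosomal protein genes the CBP peak held a divergent start in 62.3% (49 to 74.4%), and among respiratory chain genes in 60% (40.6 to 77.3%), intervals that overlap that of the mitochondrial ribosomal protein genes.

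In all, 32 of the 40 covered genes shared a peak with a divergent start, which lay within 500 bp in 29 cases. The closest pairs were mRpL23 with CG9004 (50 bp), mRpL48 with CG17660 (51 bp), mRpS28 with CG5323 (65 bp), mRpL51 with CG13090 (69 bp), mRpL2 with the forkhead factor gene Mnf (84 bp) and mRpL42 with CG2292 (94 bp). mRpL55 lay 101 bp from ATPsyn-d, which encodes a subunit of mitochondrial ATP synthase, a partner that also works in mitochondria.

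Several other partners encode proteins of general cell functions. mRpL39 lay 292 bp from Prosbeta2, a catalytic subunit of the proteasome, and mRpS17 lay 292 bp from Nop60B, the pseudouridine synthase that modifies ribosomal RNA. mRpL44 lay 257 bp from Snr1, a subunit of the Brahma remodeling complex, and mRpL17 lay 404 bp from Tudor-SN, a nuclease of the RNA interference machinery. mRpS10 lay 217 bp from Art3, an arginine methyltransferase, and mRpS21 lay 285 bp from Droj2, a DnaJ-type chaperone. These partners range from proteolysis to RNA modification and chromatin.

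Partners with other functions were found as well. mRpL33 lay 425 bp from norpA, the phospholipase C of phototransduction, and mRpL50 lay 456 bp from mei-P22, which acts in meiotic recombination. mRpL34 lay 456 bp from Dg (dystroglycan), and mRpS24 lay 444 bp from Apc2, a negative regulator of Wingless signalling. Whether such partners are transcribed in S2 cells was not measured in these tables.

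The widest gaps were at mRpS23 with cenG1A (529 bp), mRpL3 with Graf (552 bp) and mRpL41 with CG8079 (768 bp). The median distance between the starts was 292 bp (84 to 433 bp) for pairs under SMARCAD1 peaks and 329.5 bp (255 to 435 bp) for those under CBP peaks, against 377 and 338 bp for all divergent pairs. Both intervals contain the value of all pairs.

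The centre of the peak lay between the divergent starts in 7 of 19 cases for SMARCAD1 (36.8%, 16.3 to 61.6%) and in 17 of 28 for CBP (60.7%, 40.6 to 78.5%). For all divergent pairs it did so in 46.3 and 51.3%, values within these intervals. Among the genes entered for its peak, the mRp gene had the start nearest to the peak centre in 13 of 26 cases for SMARCAD1 (50%, 29.9 to 70.1%, against 64.3% of all covered genes) and in 13 of 33 for CBP (39.4%, 22.9 to 57.9%, against 64.6%). For 13 SMARCAD1 and 20 CBP peaks the start nearest to the centre thus belonged to a neighbour. The interval lay below the value of all genes for CBP and contained it for SMARCAD1. A start alone under its peak is the nearest by default. That held for 7 of 26 (SMARCAD1) and 4 of 33 (CBP) mRp genes, against 815 of 2493 and 1063 of 3346 of all. This comparison therefore partly repeats the share of peaks with another start. Under a peak with several starts, the tables cannot tell at which of them the protein was located.

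**Figure D3:**
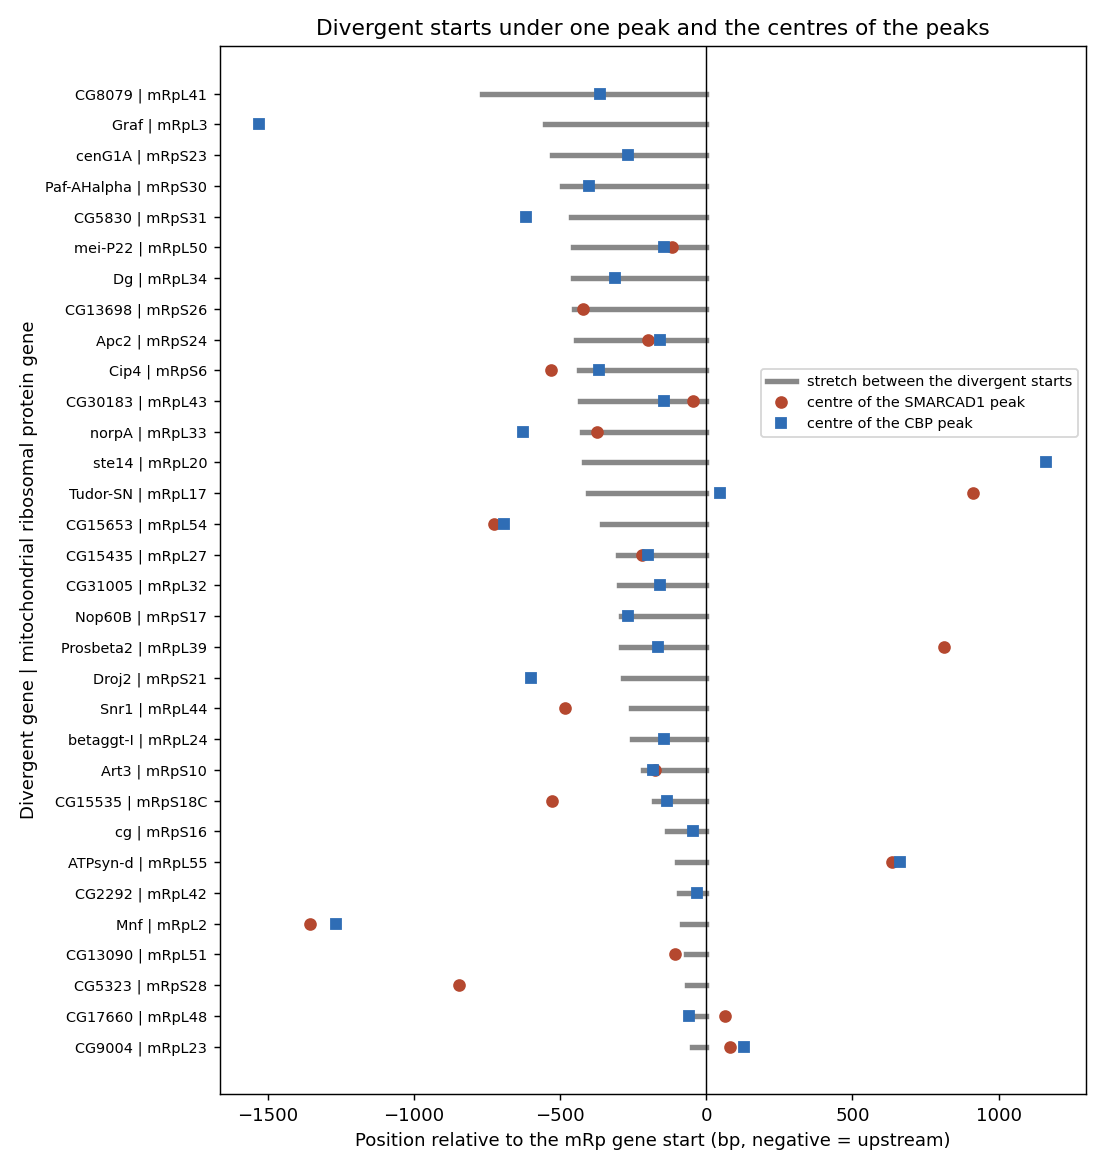
Divergent start nearest to each of 32 mitochondrial ribosomal protein genes among those under the same peak, with the centres of the SMARCAD1 (circles) and CBP (squares) peaks, in bp from the mRp gene start. Grey bars span the stretch between the starts, from 50 bp (mRpL23) to 768 bp (mRpL41). The CBP centre lies on the bar in 17 of 28 genes and the SMARCAD1 centre in 7 of 19.

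A peak held more than one other start in 5 SMARCAD1-covered and 4 CBP-covered genes, or 19.2 and 12.1%, near the 15 and 11.6% of all covered genes. mRpL17 shared both of its peaks with Tudor-SN and with CG34263, at +1126 bp on the opposite strand. mRpL55 shared both with ATPsyn-d and, at +543 bp on its own strand, cdi, which encodes a kinase. mRpS10 shared both with Art3 and with CG34316, whose start the tables place at the same position, so that these starts cannot be told apart. mRpS18C had CG15535 (180 bp) and CG2217 (1041 bp) under its SMARCAD1 peak, but CG15535 alone under its CBP peak. The SMARCAD1 peak at mRpS28 held CG5323 and CG5327 (972 bp), both divergent. The CBP peak at mRpL20 held ste14 (418 bp upstream), CG11267 (+1776 bp) and MICAL-like (+2526 bp), the largest number of starts.

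No other start was under a covering peak at 7 genes, mRpL1, mRpL9, mRpL19, mRpL28, mRpL45, mRpL49 and mRpS33. mRpL18 had one, Taz, 11 bp into the gene side on the opposite strand, so that these genes overlap. At the 7 genes that were alone under a SMARCAD1 peak, all centres were upstream, between -373 and -70 bp. At the 4 alone under a CBP peak (mRpL9, mRpL19, mRpL28 and mRpL45), they were between -208 and -100 bp. Of all genes alone under a peak, the centre was upstream in 65.9% for SMARCAD1 and 59.6% for CBP.

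At the 19 starts covered by both antibodies, the SMARCAD1 peak was the wider in 18 (94.7%, against 87% of all 1747 genes covered by both). The CBP peak lay wholly inside the SMARCAD1 peak in 16 (84.2%, 60.4 to 96.6%, against 66.8%), with mRpL17, mRpL48 and mRpS18C as exceptions. The median ratio of the widths was 1.247 (1.122 to 1.487), against 1.174 for all genes. The intervals of all of these contain the values for all genes (74 to 99.9% for the wider peak). The width of a called peak depends on the depth and background of its library, which are unknown here, so the part of the libraries in this difference was not tested.

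Both centres fell within a distance of 200 bp at 15 of the 19 starts (78.9%, 54.4 to 93.9%, against 64.9%), with a median difference, SMARCAD1 minus CBP, of 6 bp (-40 to 99 bp). The 4 exceptions were mRpS18C (-393 bp), mRpL33 (254 bp), mRpL17 (866 bp) and mRpL39 (978 bp). At mRpL39 the CBP peak (1304 bp) lay around its start and that of Prosbeta2, 292 bp away. The SMARCAD1 peak (3461 bp) contained the whole mRpL39 gene and was 2.65 times as wide. At mRpL17 the CBP peak (4698 bp) was wider than the SMARCAD1 peak (3544 bp), a ratio of 0.754.

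**Figure D4:**
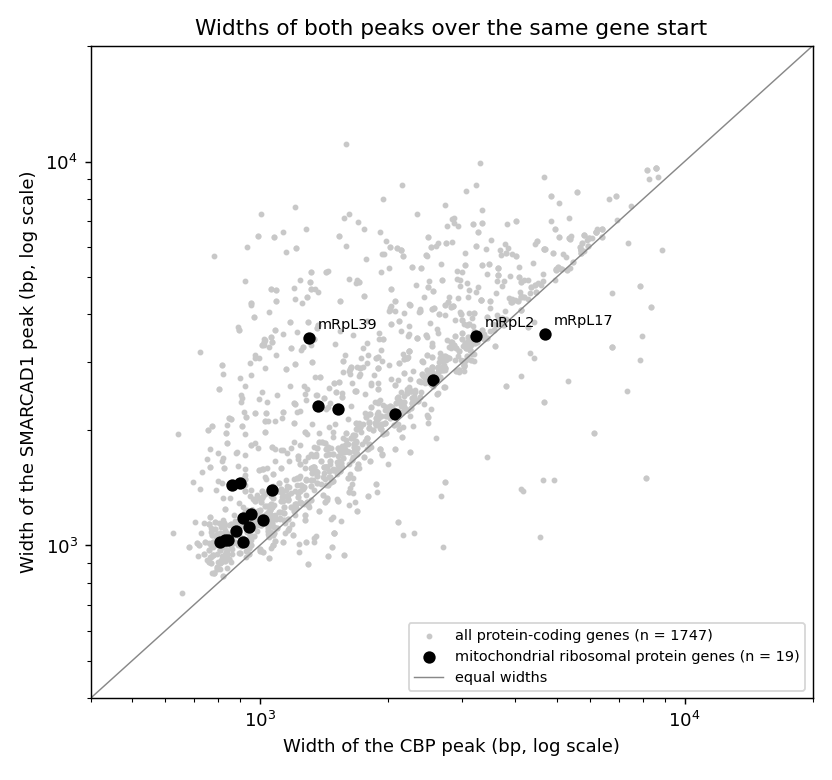
Width of the SMARCAD1 peak against the width of the CBP peak (bp, both axes logarithmic) over the same gene start. Black points are the 19 mitochondrial ribosomal protein genes, grey points all 1747 protein-coding genes covered by both, and the line marks equal widths. Of the black points 18 lie above the line, and mRpL17 lies below it.

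The other genes of mitochondrial gene expression, those for translation factors, tRNA synthetases and the upkeep of mitochondrial DNA, were taken as lists. Of 40 matched genes, SMARCAD1 covered 7 starts (17.5%), CBP 9 (22.5%) and both 4 (10%), which is near the 17.9, 24 and 12.5% of all genes. Both peaks were over mIF3 (translation initiation), mRF1 (release factor), LeuRS-m (leucyl-tRNA synthetase) and PolG2 (accessory subunit of the mitochondrial DNA polymerase). At mRF1 the centres were at -148 and -84 bp and at PolG2 at -49 and -17 bp, whereas at mIF3 both were at -1972 bp. Among 15 mitochondrial tRNA synthetase genes SMARCAD1 covered 3 starts and CBP 1, and among 12 genes for mitochondrial DNA transcription and replication they covered 2 and 5. SMARCAD1 alone covered AsnRS-m, AspRS-m and mTerf3, and CBP alone covered mEFTu1, mtTFB2, mTerf5, mtSSB and mtDNA-helicase. The list also holds tko, bonsai and DAP3, ribosomal protein genes under other names (DAP3 is mRpS29 in RefSeq), which had no entry of either antibody.

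One further gene of the mitochondrial ribosome was in both tables under an older name. Rlc1, which RefSeq lists as mRpL47, had a SMARCAD1 peak over its start (centre at -673 bp, width 2910 bp) and a CBP peak (-568 bp, 2543 bp). It was not among the 45 genes because the tables do not name it mRpL. With it, 27 starts were covered by SMARCAD1, 34 by CBP and 20 by both.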

How the data were processed

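The authors mapped 76-bp paired-end reads of S2 cell chromatin with BWA, called peaks for each library against a control with MACS and annotated them with ChIPpeakAnno. The deposited tables hold positions, widths and distances in bp, and no counts, scores or P values. The methods name dm6, but chromosome names such as Uextra do not belong to it, and 0 of the 45 genes had the gene ends of RefSeq Release 6. RefSeq therefore gave names, protein-coding status, chromosomes and the totals of the gene groups, but no positions. Of 6016 gene names, 5525 matched a protein-coding gene. Class and distance were recomputed from the positions and matched in all 5749 SMARCAD1 and 6418 CBP entries with a gene.

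All entries were used. Shares and medians came from pandas 2.3.3 and intervals from scipy 1.17.1 and numpy 2.4.6 (Python 3.11.15), with steps tested on simulated data. Shares of covered starts were taken over RefSeq protein-coding genes, and other shares over gene names in the tables. Full values were given for the genes covered by both antibodies with the nearest centres, those covered by one antibody, those without a covered start, the widest and narrowest peaks, and peaks with several other starts. The gene group and lists were chosen with earlier results of these data known. The alternatives were other definitions of a covered start, of a neighbour and of shared peaks.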

Additional observations from a re-analysis of the deposited data

How the results depend on the processing

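Of 34 combinations of 8 values with an alternative, 25 stayed within the limits set for a change, 9 moved and 0 reversed. Those 25 include the limit of 5000 bp on peak width, which could change nothing. The widest covering peak at these genes was 4698 bp. With only the gene whose start was nearest to the peak centre, 13 starts were covered by SMARCAD1, 13 by CBP and 8 by both, and the median CBP distance was -128 bp. Among all covered genes, 1603 of 2493 (SMARCAD1) and 2161 of 3346 (CBP) remained under that rule. These are 64.3 and 64.6%, whereas 50 and 39.4% of the covered mRp genes remained. The excess of mRp genes over all genes was therefore smaller under that rule. With only the entry that the tables mark as nearest start, the mRp gene counts were 16, 17 and 10. Shares of all 13922 genes were not taken under either rule. Intervals for the mRp gene shares were not taken either, so whether they would still lie above all genes was not tested. Where a peak had several entries, that mark was on the start nearest to the edge with the lower coordinate in 91.1% (SMARCAD1) and 94.5% (CBP) of cases and on the one nearest to the centre in 79.1 and 76.9%. With a peak centre within 500 bp of the start in place of coverage, 18 starts had SMARCAD1, 25 had CBP and 11 had both antibodies. The falls from 26 to 18 and from 33 to 25 were counted as within the limits, but the CBP shift from -166 to -128 bp as a move. The tally is therefore no measure of how stable the values are. All 19 shared starts had overlapping peaks, which follows from the definition, since peaks over the same start must overlap. The centres lay within 200 bp at 78.9% of these starts. Counting mRpL47, which is listed under an older name, and the start nearest to the centre were alternatives chosen after seeing the data. The strongest peaks by score could not be selected, since the tables hold no score, and the promoter motif search with its alternatives was not run, since no promoter sequence was at hand. No paired analysis was possible because there was a single library of either antibody. Depth is unknown, so it could not be said how many starts without a peak lacked the depth for one. A peak with several starts assigns the protein to all of them, which touches 19 SMARCAD1 and 29 CBP peaks.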
